A study of Mus musculus with 16 samples.

Results

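*Serpinf1*, *Mdk*, *Fscn1* and *Dnm1* are 4 genes, of 48432 in the deposited table, whose mean expression in peritoneal macrophages (PM) went with the genotype of lipid droplet-associated hydrolase (LDAH) in both mouse lines of the study. They were chosen by the measured group means: each is higher in LDAH-transgenic (LDAH-Tg) PM than in the controls of that line, lower in LDAH-knockout (LDAH-KO) PM than in the wild-type (WT) controls of that line, and no collagen chain. That direction is therefore not a finding, and 6680 genes of the table meet it at some size. The RNA-seq covered 16 samples, 4 in each of 4 groups: LDAH-KO and the LDAH WT animals of the same line, and LDAH overexpression and its controls, whose genotype label also names ApoE. All samples are labelled C57BL/6J, and the transgene is driven by *Csf1r* regulatory sequence, which is active in macrophages and granulocytes, whereas the knockout is global. Age and sex are not in the labels, and the sources do not say whether the donors of these PM lacked *Apoe*, as the atherosclerosis cohorts did. PM were collected 5 days after thioglycolate and loaded with oxidized LDL (oxLDL) at 50 μg/ml for 48 h, so that all 4 groups are foam cells. The values are the authors' means of each group in TPM, transcripts relative to all transcripts of a sample, a unit corrected for transcript length, so levels of different genes can be compared, with a limit given for *Lyz2* below. No value per sample was used here, so no difference below has an SD, an n of its own or a p-value, and the depth is unknown.

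The 4 genes encode proteins of unlike kinds. *Serpinf1* encodes pigment epithelium-derived factor (PEDF), a secreted serpin without protease inhibitor activity that restrains blood vessel growth and binds collagen. *Mdk* encodes midkine, a secreted heparin-binding growth factor that attracts leukocytes and is made mostly in development and after injury. *Fscn1* encodes fascin, which packs actin filaments into the parallel bundles of filopodia and is a known marker of mature dendritic cells. *Dnm1* encodes dynamin 1, the neuronal form of the GTPase that pinches endocytic vesicles from the plasma membrane, while most other cells rely on dynamin 2. LDAH itself is a protein of the lipid droplet surface with a lipase fold.

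*Ldah*, the manipulated gene, had means of 44.5 TPM in WT PM against 27.9 TPM in LDAH-KO PM, and of 28.5 TPM in control PM against 124 TPM in LDAH-Tg PM. Its mean was thus lower in the knockout and 4.36 times the control in the transgenic. Because the cassette of the knockout takes the place of the first coding exons only, reads from the rest of the gene could still be counted, and the table gives no value by exon.

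*Serpinf1* (ENSMUSG00000000753.15) lies on the minus strand of chromosome 11 of GRCm38, from 75409769 to 75422701, and has 8 annotated transcripts. The sequence just before its outermost annotated start is shown because LXR response elements are built from AGGTCA copies, and the study asks about liver X receptor (LXR) signalling. These 172 bases, chr11:75422702-75422873, minus strand, are from RefSeq (GRCm38.p6). Most of them lie inside *Gm12336* (75422731 to 75423340), a non-coding gene of the same strand that is listed at 0 in every group. Capitals mark CCAAT in 3 places and TGACCT, which is AGGTCA read on the other strand.
Serpinf1 upstream: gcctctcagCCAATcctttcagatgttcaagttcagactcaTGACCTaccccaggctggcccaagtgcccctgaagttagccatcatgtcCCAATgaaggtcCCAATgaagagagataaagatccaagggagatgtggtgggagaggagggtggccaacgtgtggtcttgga
A second AGGTCA lies at the RefSeq start itself, on the opposite strand from the first. These 2 copies do not form the DR4 element of LXR, a pair in 1 direction with 4 bases between. The stretch of 30 bases around the second, chr11:75422608-75422637, minus strand, is shown with the motif in capitals.
Serpinf1 start: ccaaatggagtcAGGTCActttaagaaaag
The mean of *Serpinf1* was 3.81 TPM in control PM against 6.28 TPM in LDAH-Tg PM, a ratio of 1.65. It was 6.74 TPM in WT PM against 2.24 TPM in LDAH-KO PM, a ratio of 0.332. The knockout mean stood lowest of the 4 groups, and the knockout difference was the largest that any of the 4 genes had in that comparison. With 0.5 added to both means before taking the log2 ratio, the scale used for all genes, which understates differences of low genes, the values were 0.65 for LDAH-Tg and -1.40 for LDAH-KO PM.

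*Mdk* (ENSMUSG00000027239.14) lies on the minus strand of chromosome 2, from 91929805 to 91932297, between *Chrm4* and *Dgkz*. It is the shortest of the 4 gene models, with 1324 exonic bases. Its mean was 8.16 TPM in control PM against 13.0 TPM in LDAH-Tg PM, a ratio of 1.60 and a log2 ratio of 0.64. In the other line it was 4.88 TPM in WT PM against 3.04 TPM in LDAH-KO PM, a ratio of 0.622 and a log2 ratio of -0.61. The sizes of the 2 differences were alike, and both groups of the transgenic line lay above both groups of the knockout line.

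*Fscn1* (ENSMUSG00000029581.14) lies on the plus strand of chromosome 5, from 142960343 to 142973185. Its upstream sequence of 238 bases, chr5:142960105-142960342, plus strand, from RefSeq, is shown because it is the only member window with a TATAAA box, in capitals.
Fscn1 upstream: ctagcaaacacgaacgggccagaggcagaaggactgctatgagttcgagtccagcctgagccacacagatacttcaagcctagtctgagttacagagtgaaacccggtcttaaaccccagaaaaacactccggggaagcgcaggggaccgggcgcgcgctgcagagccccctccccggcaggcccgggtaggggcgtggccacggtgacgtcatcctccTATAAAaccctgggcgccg
The mean of *Fscn1* was 4.52 TPM in control PM against 6.12 TPM in LDAH-Tg PM, a ratio of 1.35. It was 8.33 TPM in WT PM against 3.97 TPM in LDAH-KO PM, a ratio of 0.477. On the log2 scale these were 0.40 and -0.98. The transgenic difference of 1.60 TPM was the smallest of the 4 genes in that line, and the LDAH-Tg mean did not reach the WT mean of the knockout line.

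*Dnm1* (ENSMUSG00000026825.17) lies on the minus strand of chromosome 2, from 32308471 to 32353338. Its upstream sequence of 241 bases, chr2:32353339-32353579, minus strand, from RefSeq, is shown because it sits inside a neighbouring gene, *Ciz1*. None of the motifs searched was found in it, so it has no capitals.
Dnm1 upstream: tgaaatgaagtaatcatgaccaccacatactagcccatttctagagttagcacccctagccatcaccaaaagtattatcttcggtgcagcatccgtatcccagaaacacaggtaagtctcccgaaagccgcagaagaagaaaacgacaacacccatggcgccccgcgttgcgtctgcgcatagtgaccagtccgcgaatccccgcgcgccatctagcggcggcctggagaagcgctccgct
The mean of *Dnm1* was 5.95 TPM in control PM against 13.0 TPM in LDAH-Tg PM, a ratio of 2.18 and a log2 ratio of 1.06. This was the largest transgenic difference of the 4 genes. In the knockout line it was 3.39 TPM in WT PM against 2.09 TPM in LDAH-KO PM, a ratio of 0.615 and a log2 ratio of -0.59.

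**Figure D1:**
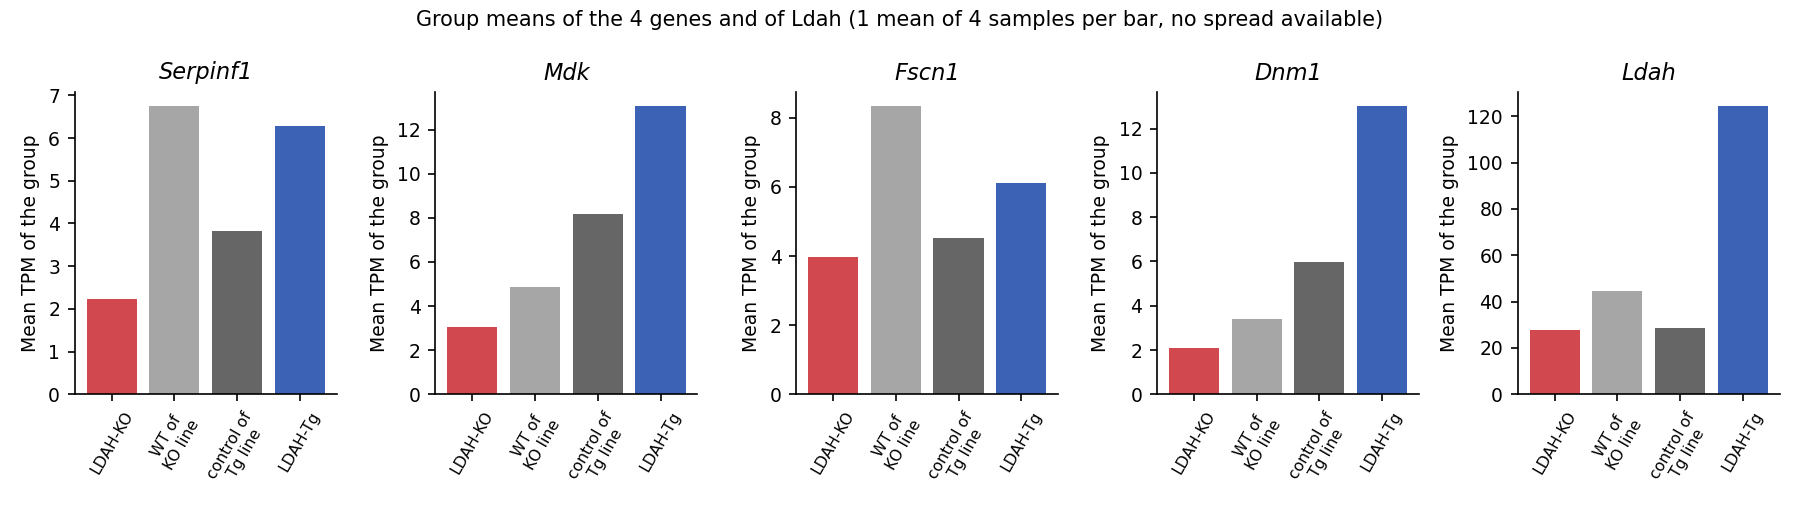
Mean TPM of *Serpinf1*, *Mdk*, *Fscn1*, *Dnm1* and *Ldah* in each group (1 bar per group, the authors' mean of 4 samples, with no spread). LDAH-KO PM have the lowest bar for all 5 genes, from 2.09 TPM for *Dnm1* to 27.9 TPM for *Ldah*, and each gene has its own vertical scale.

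The table places *Dnm1* in 1 locus with 4 further genes, whereas the other 3 members each have a locus of their own. *Ciz1*, which encodes a nuclear protein of DNA replication, starts inside *Dnm1* on the opposite strand, and the bodies of the 2 genes overlap by 1012 bases. Their annotated exons share 0 bases. The library kit keeps strand, but whether the counting used it is not given in the sources used here. *Ciz1* had means of 44.5 TPM in control PM against 61.4 TPM in LDAH-Tg PM (0.46 as a log2 ratio), and of 29.9 TPM in WT PM against 24.8 TPM in LDAH-KO PM (-0.27 as a log2 ratio), the same signs as *Dnm1*. Its part in the *Dnm1* values was not tested. On the other side, *Golga2*, which ends 549 bases from *Dnm1*, had log2 ratios of -0.04 and -0.23. Of the miRNA genes within *Dnm1*, *Mir199b* is listed at 0 in every group.

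**Figure D2:**
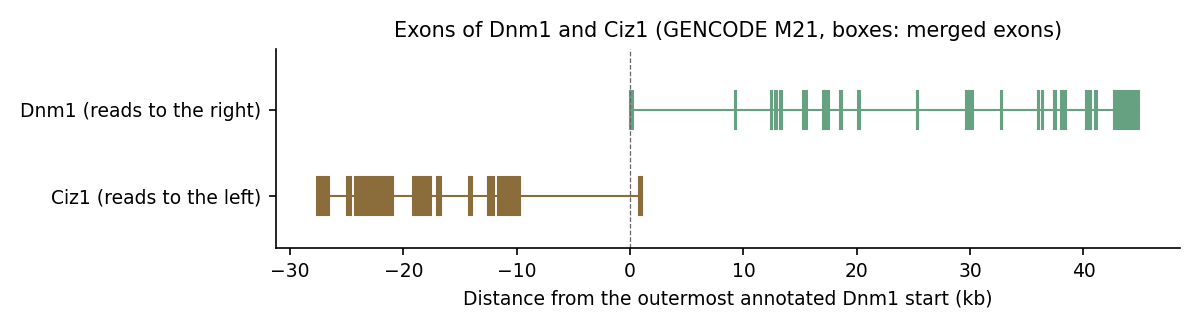
Annotated exons of *Dnm1* and *Ciz1* in GENCODE, by distance in kb from the outermost *Dnm1* start (0, dashed line); boxes are merged exons and lines the gene bodies. The first exon of *Ciz1* lies within the first intron of *Dnm1*, and no exons of the 2 genes coincide.

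The neighbours of the other members with values differed less in both lines than the members did. *Dgkz*, a diacylglycerol kinase gene that ends 526 bases upstream of *Mdk*, was at 169 TPM in control PM against 199.9 TPM in LDAH-Tg PM (0.24 as a log2 ratio), and its log2 ratio in LDAH-KO PM was -0.05. *Wdr81*, near *Serpinf1*, had log2 ratios of 0.17 and -0.17, and *Smyd4*, on its other side, of 0.06 and -0.32. *Rnf216* was the 1 gene within 25 kb of *Fscn1*, with log2 ratios of 0.18 and -0.32.

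Set against all genes, 3 of the members were among few that differed in both lines by a sizeable amount. A gene was counted as past the threshold when its log2 ratio reached a factor of 1.5 (0.58 on the log2 scale), a size and not a test. Comparisons covered genes with a mean of at least 1 TPM over the groups compared and neither at 0, and all 4 members had values in both. In LDAH-Tg PM 3 of the 4 members were higher by that factor, all but *Fscn1*, against 1.26% of 11395 genes. In LDAH-KO PM 4 of 4 were lower by it, against 1.83% of 11289 genes, though *Mdk* and *Dnm1* were close to the threshold and fell short of it when the groups were scaled by median ratios (-0.53 and -0.52). The 3 members past the factor in both compare with 0.101% of the 10858 genes with values in both, or 11 genes. These shares describe how the members were picked and support nothing further. The direction alone, at any size, was met by 32.3% of those genes, 3509 in number, and the opposite direction in both lines by 1853.

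Ranked by the smaller of their 2 log2 ratios, the 3314 protein-coding genes of this direction outside the collagen chains began with *Ldah*, *Serpinf1*, *Mdk* and *Dnm1*. The next, just under the factor in LDAH-Tg PM, was *Leng8* (log2 ratios 0.58 and -0.75), followed by the splicing factor gene *Srrm2* (0.55 and -0.54). *Fscn1* stood at rank 31, between *Cyr61*, a secreted matricellular protein gene (0.40 and -0.73), and *Bbs10* (0.45 and -0.40). Of the 11 genes past the factor in both, 5 encode protein: *Ldah*, *Serpinf1*, *Mdk*, *Dnm1* and the type I collagen gene *Col1a1* (0.66 and -1.09). In the knockout line *Col1a1* reached the minimum of 1 TPM only through the WT group (2.44 TPM, against 0.880 TPM in LDAH-KO PM).

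**Figure D3:**
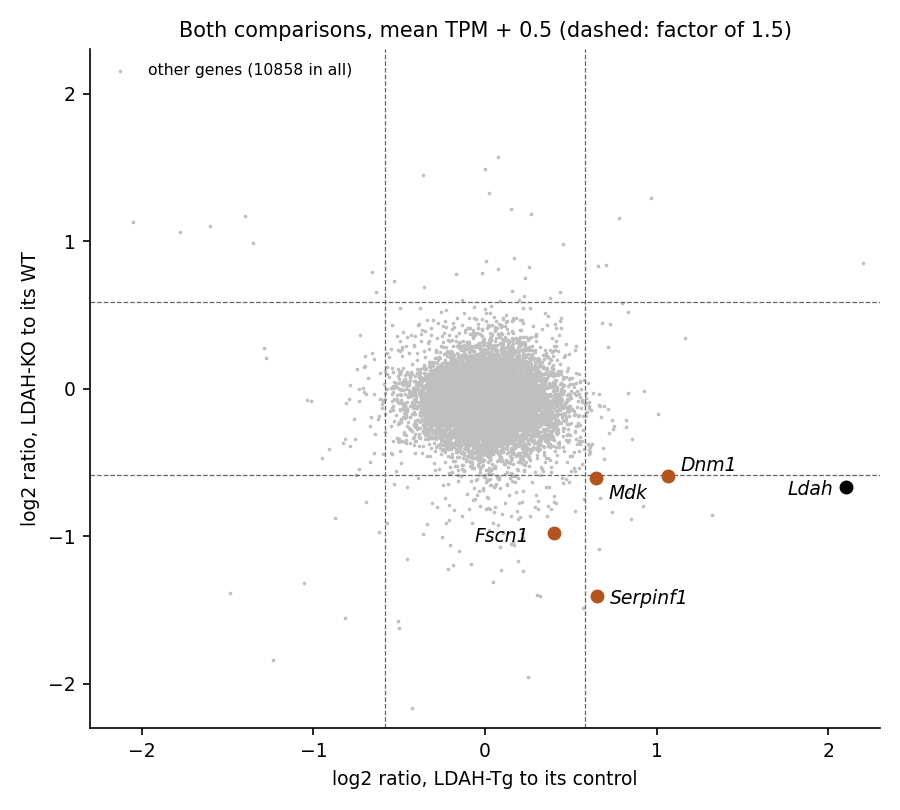
Log2 ratio (mean TPM + 0.5) of LDAH-Tg to its control (horizontal) and of LDAH-KO to its WT (vertical) for 10858 genes, with the 4 members in brown and *Ldah* in black; dashed lines mark a factor of 1.5. *Serpinf1*, *Mdk* and *Dnm1* lie past both lines at the lower right, and *Fscn1* (0.40 and -0.98) past only the horizontal one.

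The rule did not compare the controls of the 2 lines with each other, and there the 4 genes differed in direction, 2 against 2. It did use the means of both control groups, so this comparison is not independent of the choice. *Serpinf1* and *Fscn1* were higher in the WT PM of the knockout line than in the controls of the transgenic line, at 6.74 against 3.81 TPM and 8.33 against 4.52 TPM (log2 ratios 0.75 and 0.81). *Mdk* and *Dnm1* were lower there, at 4.88 against 8.16 TPM and 3.39 against 5.95 TPM (log2 ratios -0.69 and -0.73). All 4 passed the factor of 1.5, which 38.6% of 11404 genes did in 1 direction or the other, so a difference of this size between the control groups is common. Line, ApoE genotype as labelled and preparation cannot be told apart in it.

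The order of the 4 groups accordingly differed within the set. For *Serpinf1* and *Fscn1* it ran, from high to low, WT, LDAH-Tg, control and LDAH-KO. For *Mdk* and *Dnm1* it ran LDAH-Tg, control, WT and LDAH-KO. *Ldah* itself had a further order, LDAH-Tg, WT, control and LDAH-KO, so no member followed the level of *Ldah* across all 4 groups. The mean of *Ldah* in LDAH-KO PM and in the controls of the transgenic line was nearly the same, with a ratio of control to knockout of 1.02. Between these groups the ratio was 2.85 for *Dnm1*, 2.69 for *Mdk*, 1.71 for *Serpinf1* and 1.14 for *Fscn1*. Whether neighbours in these orders differ beyond the spread of samples cannot be said from means.

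**Figure D4:**
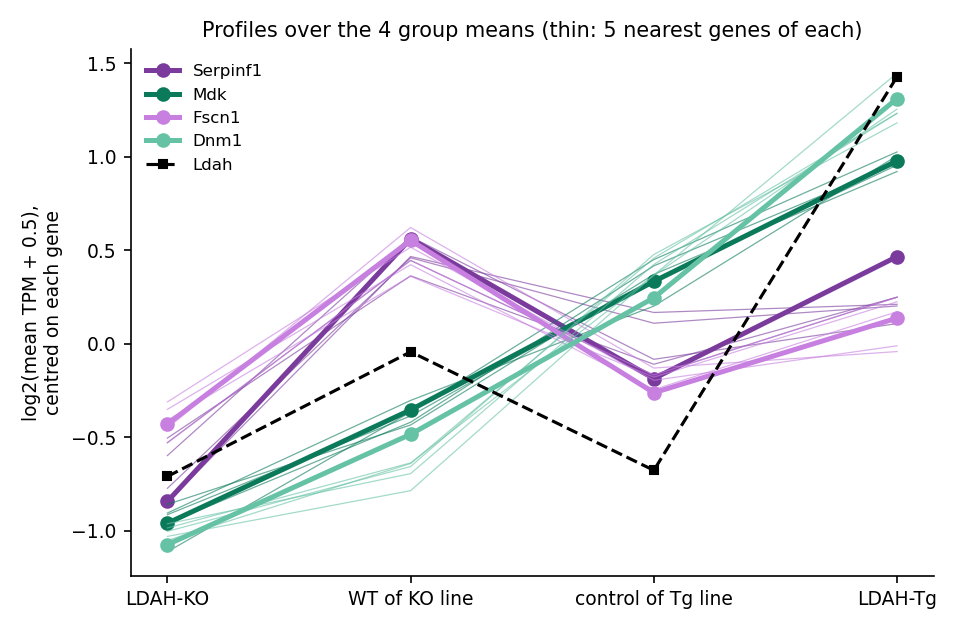
Log2(mean TPM + 0.5) over the 4 group means, centred on each gene's own mean; thick lines are the 4 members, thin lines the 5 protein-coding genes nearest to each, and the dashed line *Ldah*. *Serpinf1* and *Fscn1* (purple) peak in the WT of the knockout line, while *Mdk* and *Dnm1* (green) climb from LDAH-KO through both controls to LDAH-Tg.

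The nearest genes in pattern were different for the pairs. Likeness was the Euclidean distance between centred log2 values over the 4 group means, among 10476 protein-coding genes, and 4 points can rank genes but not test them. The distance was 0.38 between *Mdk* and *Dnm1* and 0.53 between *Serpinf1* and *Fscn1*, against 1.18 to 1.77 for members of different pairs. Many other genes were nearer, however, since *Dnm1* was only the gene of rank 68 in nearness to *Mdk* and *Serpinf1* that of rank 263 to *Fscn1*, while *Mdk* was at rank 9 for *Dnm1* and *Fscn1* at rank 10 for *Serpinf1*. Nearest to *Serpinf1* were *Mmp23* (0.40), *Tmem176a* (0.42), the fibrillar collagen gene *Col3a1* (0.45), the fibroblast receptor gene *Pdgfra* (0.45) and *Rcn3* (0.45), which encodes a calcium-binding protein of the secretory pathway. Nearest to *Fscn1* were *Ralgps2* (0.16), the smooth muscle actin gene *Acta2* (0.20), *Mmp23* (0.21), *Cadm4* (0.23) and the matrix glycoprotein gene *Sparc* (0.23). Nearest to *Mdk* were *Cpxm1* (0.061), *Srrm2* (0.11), *Fnbp4* (0.15), *Klhdc8b* (0.15) and *Leng8* (0.20). Nearest to *Dnm1* were *Lgals4* (0.22), *Treml1* (0.28), *Ms4a14* (0.31), *Adam33* (0.32) and *Npas4* (0.36), all at 1.05 TPM or less in both groups of the knockout line.

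All 4 members, at 2.09 to 13.0 TPM, stood near the middle of the genes with a mean above 0, which include genes under the minimum of 1 TPM. Among genes with a mean above 0, *Serpinf1* ranged from the 46.9th percentile in LDAH-KO to the 58.0th in LDAH-Tg PM, and *Fscn1* from the 51.5th in LDAH-KO to the 59.0th in WT PM. *Mdk* ranged from the 49.3rd to the 67.8th and *Dnm1* from the 46.5th to the 67.7th, in LDAH-KO and LDAH-Tg PM. Between the highest and the lowest group, *Dnm1* spanned 6.23 times, *Mdk* 4.30, *Serpinf1* 3.01 and *Fscn1* 2.10.

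No relative of *Serpinf1* with a value reached the factor in LDAH-Tg PM, which does not set a list of this size apart from other genes. Of 67 other serpin genes, 32 are listed at 0 in all groups and 12 had values in the transgenic comparison. Of these 12, 0 passed the factor in either direction, beside 1.26% higher and 0.685% lower of all genes, and their median was -0.11 on the log2 scale beside 0.00 over all genes tested. In LDAH-KO PM 2 of 13 were lower by the factor and 0 higher, beside 1.83% lower and 0.39% higher of all genes, with a median of -0.10 beside -0.08 over all genes. Those 2 were *Serpinh1*, the collagen chaperone HSP47 (15.0 TPM in WT PM against 7.90 TPM in LDAH-KO PM, or -0.88 as a log2 ratio), and *Serping1*, the complement C1 inhibitor (1.76 and 0.994 TPM, log2 ratio -0.60). *Serping1* reached the minimum of 1 TPM only through the WT group. *Serpinh1* was at 14.0 TPM in control PM against 16.1 TPM in LDAH-Tg PM (0.19 as a log2 ratio). The abundant serpin was the intracellular *Serpinb6a*, at 1064 TPM in WT PM against 1146 TPM in LDAH-KO PM, and at 576 TPM in control PM against 437 TPM in LDAH-Tg PM (-0.40 as a log2 ratio). *Serpinf2*, the neighbour of *Serpinf1* that encodes the plasmin inhibitor, had at most 0.181 TPM in any group.

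The receptors proposed for PEDF and midkine differed little where they had values. None of 6 PEDF receptor genes passed the factor in either line, with medians of -0.08 for LDAH-Tg and -0.19 for LDAH-KO PM. *Pnpla2*, which encodes the triglyceride lipase ATGL as well as a PEDF receptor, was at 133 and 126 TPM in control and LDAH-Tg PM and at 155 and 142 TPM in WT and LDAH-KO PM (log2 ratios -0.08 and -0.13). *Rpsa*, the laminin receptor, had the highest log2 ratios of this group, 0.12 and 0.10, while the lowest were those of *Atp5b*, a subunit of ATP synthase, in LDAH-Tg PM (-0.17) and of *Plxdc2* in LDAH-KO PM (-0.26). The midkine list held 15 genes, of which 9 had values and 0 passed the factor in either line, with medians of -0.14 and -0.19. Over all genes at most 1.83% passed the factor in 1 direction, so 0 does not set either list apart. The medians over all genes were 0.00 and -0.08. Integrin *Itgb1* was lowest in LDAH-Tg PM (183 and 136 TPM, log2 ratio -0.43) and *Notch2* lowest in LDAH-KO PM (11.0 and 7.97 TPM, log2 ratio -0.44), while nucleolin, *Ncl*, was highest in LDAH-Tg PM (0.22 as a log2 ratio). All 9 had ratios below 0 in LDAH-KO PM, as did 66.6% of all genes tested there. The scavenging receptor *Lrp1* was at 789 TPM in control PM against 750.5 TPM in LDAH-Tg PM and at 201 TPM in WT PM against 157 TPM in LDAH-KO PM (log2 ratios -0.07 and -0.36). Pleiotrophin, *Ptn*, the single relative of midkine, had at most 0.240 TPM, so *Mdk* made up 95.4% to 98.2% of the summed TPM of the pair.

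Among actin bundlers, the transcript of fascin was a minor one. *Lcp1*, the leukocyte bundling protein L-plastin, was at 629 TPM in control PM against 537 TPM in LDAH-Tg PM (-0.23 as a log2 ratio) and at 977 TPM in WT PM against 862 TPM in LDAH-KO PM (-0.18 as a log2 ratio). Of 23 genes of actin bundling and protrusion other than *Fscn1*, 18 had values. Of these, 0 passed the factor in either line, beside at most 1.83% of all genes in 1 direction. Their medians were -0.12 for LDAH-Tg and -0.21 for LDAH-KO PM, beside 0.00 and -0.08 over all genes. *Marcksl1*, an actin-binding substrate of protein kinase C, was the highest in LDAH-Tg PM and lower in LDAH-KO PM (log2 ratios 0.35 and -0.34). *Diaph3* was the lowest in LDAH-Tg PM (-0.35) and *Ezr*, which ties actin to the membrane, in LDAH-KO PM (-0.41), where *Evl* was the highest (0.01). The fascin relatives *Fscn2* and *Fscn3* were near or at 0 in every group.

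*Dnm1* was likewise the smaller part of its family. *Dnm2*, the widely expressed dynamin, was at 93.3 TPM in control PM against 101.5 TPM in LDAH-Tg PM (0.12 as a log2 ratio), and at 89.7 TPM in WT PM against 78.0 TPM in LDAH-KO PM (-0.20 as a log2 ratio). *Dnm1* made up 3.65% of the summed TPM of *Dnm1*, *Dnm2* and *Dnm3* in WT and 2.60% in LDAH-KO PM, and 6.00% in control and 11.4% in LDAH-Tg PM. Of 8 other dynamin family genes 5 had values, with medians of 0.07 for LDAH-Tg and -0.19 for LDAH-KO PM, beside 0.00 and -0.08 over all genes. Of these 5, 0 passed the factor, beside at most 1.83% of all genes in 1 direction. *Mfn1*, a GTPase of mitochondrial fusion, had the highest ratio in LDAH-Tg PM and the lowest in LDAH-KO PM (0.32 and -0.35). *Opa1* had the lowest ratio in LDAH-Tg PM (-0.10) and *Mfn2* the highest in LDAH-KO PM (-0.17), both also of mitochondrial fusion. Of 30 endocytic partners of dynamin 25 had values, again with 0 past the factor and medians of -0.04 and -0.12. With the same shares and medians over all genes, 0 does not set either list apart from other genes. The clathrin heavy chain, *Cltc*, was lowest in LDAH-Tg PM (180.1 and 124 TPM, log2 ratio -0.54), and *Synj1* was highest there (0.21). In LDAH-KO PM the scaffold gene *Itsn2* was lowest (-0.36) and the clathrin adaptor gene *Ap2s1* highest (0.19).

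**Figure D5:**
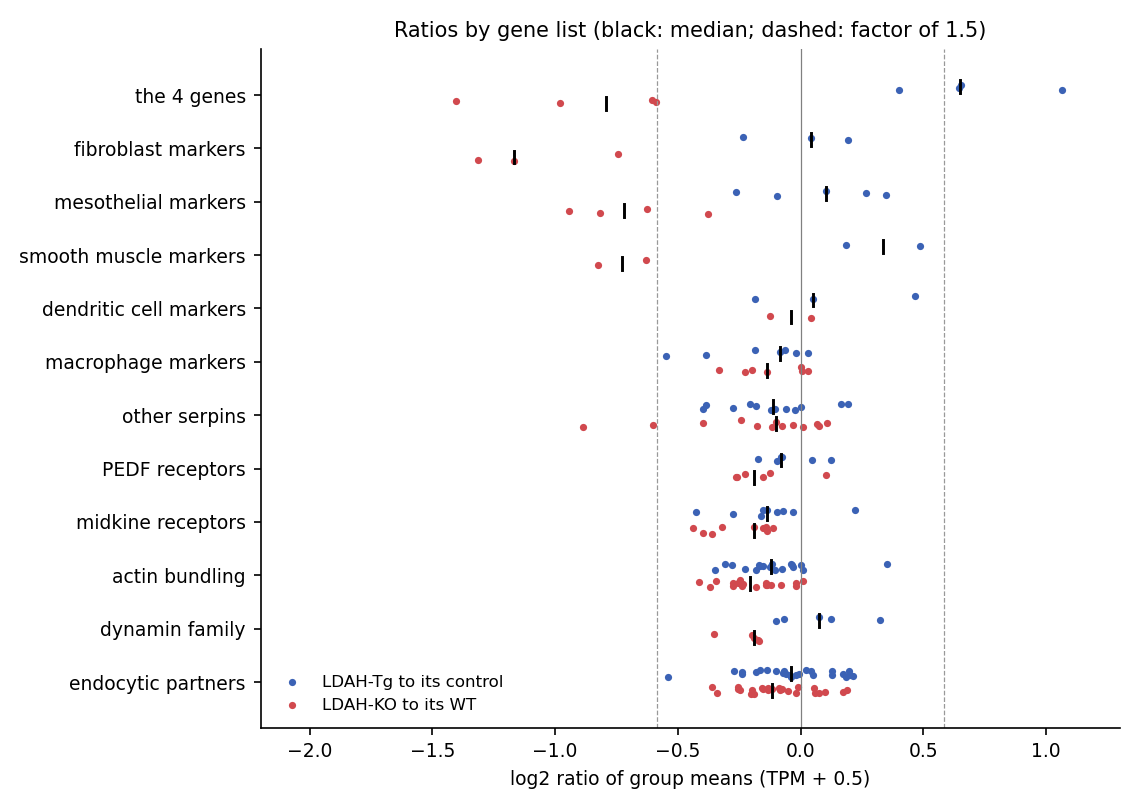
Log2 ratios of LDAH-Tg (blue) and LDAH-KO (red) to their own controls for the 4 members, 5 lists of cell type markers and 6 lists of relatives and partners; each point is 1 gene with a value, the black mark is the list median and dashed lines a factor of 1.5. In LDAH-KO PM the 3 fibroblast, 4 mesothelial and 2 smooth muscle markers with values lie left of 0 (medians -1.17, -0.72 and -0.73, against -0.43, -0.37 and -0.12 over the whole lists of 9, 11 and 6 with no minimum level), while the family lists stay within the dashed lines apart from 2 serpins. Of all genes, at most 1.83% lie past 1 of these lines in either comparison.

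Markers of other cells moved beside the members in the knockout line. In these whole cultures, fewer cells of a type and less RNA per cell cannot be told apart. The 9 fibroblast markers summed to 31.1 TPM in WT PM against 16.1 TPM in LDAH-KO PM, and to 20.5 TPM in control PM against 19.3 TPM in LDAH-Tg PM. Those with values in LDAH-KO PM were *Pdgfra*, *Col3a1* and *Dcn*, and all 3 were lower by the factor, as were 1.83% of all genes. *Pdgfra* was at 4.74 TPM in WT PM against 1.83 TPM in LDAH-KO PM, *Col3a1* at 4.75 and 1.61 TPM and *Dcn*, the largest part of the sums, at 19.8 and 11.6 TPM. In the transgenic line *Pdgfra* was at 2.83 and 3.30 TPM and *Col3a1* at 3.77 and 3.90 TPM, higher in LDAH-Tg PM as the members were (log2 ratios 0.19 and 0.04), and *Dcn* was lower, at 12.8 and 10.8 TPM (-0.24). Over all 9 with no minimum level, the median log2 ratio was 0.04 in LDAH-Tg PM and -0.43 in LDAH-KO PM.

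The 11 mesothelial markers summed to 11.4 TPM in WT PM against 7.04 TPM in LDAH-KO PM, and to 10.3 and 10.4 TPM in the transgenic line, with medians over the whole list of -0.37 in the knockout and -0.08 in the transgenic comparison. *Wt1*, *Upk3b* and *Gpm6a* were lower by the factor in LDAH-KO PM, but *Upk3b* and *Gpm6a* reached the minimum of 1 TPM only through the WT group (1.80 and 1.35 TPM, against 0.694 and 0.700 TPM). The keratin genes *Krt8* and *Krt18*, under that minimum, had log2 ratios of 0.21 and 0.14 there. The 6 smooth muscle and pericyte markers summed to 12.4 and 6.87 TPM in the knockout line and to 5.99 and 7.40 TPM in the transgenic line. Nearly all of these sums was *Acta2* and *Tagln*, which were lower in LDAH-KO PM (-0.83 and -0.63) and higher in LDAH-Tg PM (0.18 and 0.49), in the direction of the members. The part of these cells in the members' values was not tested.

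Of 9 markers of mature dendritic cells, 3 had values in the transgenic and 2 in the knockout comparison. Of these, 0 passed the factor, beside at most 1.83% of all genes in 1 direction. The 9 had sums of 59.5 and 55.1 TPM in control and LDAH-Tg PM, and 68.6 and 63.8 TPM in WT and LDAH-KO PM. Most of these sums was *Cd83*. The dendritic marker *Il4i1* stood at a log2 ratio of 0.47 in the transgenic line, with 1.91 TPM in LDAH-Tg PM, and *Ccl17* is listed at 0 in some groups. Markers of the endothelium summed to at most 2.27 TPM in any group, those of B cells to 1.47 TPM and those of T cells to 0.340 TPM. The 4 mast cell markers, each under 1 TPM in every group, summed to 0.351 TPM in LDAH-KO, 0.392 TPM in WT, 1.16 TPM in control and 1.97 TPM in LDAH-Tg PM. That is the order of groups of *Mdk* and *Dnm1*, but among the markers only *Cma1* and *Tpsb2* had it. *Cpa3* was at 0.145 TPM in WT against 0.197 TPM in LDAH-KO PM, and *Mcpt4* was at 0 throughout. The part of mast cells in the values of *Mdk* and *Dnm1* was not tested. Eosinophil markers summed to between 2.62 and 4.45 TPM, nearly all of it *Siglecf*. Neutrophil markers summed to between 73.2 and 113 TPM, most of it *S100a8*. That gene was at 107 and 98.8 TPM in control and LDAH-Tg PM against 63.8 and 68.2 TPM in WT and LDAH-KO PM. *Mmp8* went the other way, at 5.49 and 5.55 TPM against 9.36 and 10.1 TPM. *S100a9* had at most 0.740 TPM and *Ly6g* is listed at 0 throughout. Macrophage markers were high but not all even: *Cd68* was at 3023 to 4959 TPM, and *Csf1r* at 94.2 to 108 TPM. *Adgre1* was at 146 and 147 TPM in WT and LDAH-KO PM, and at 33.1 and 22.4 TPM in control and LDAH-Tg PM. *Itgam* was at 273 and 217 TPM in WT and LDAH-KO PM, and at 144 and 110 TPM in control and LDAH-Tg PM. Their log2 ratios were -0.55 and -0.39 in LDAH-Tg PM, and 0.01 and -0.33 in LDAH-KO PM. Of 8 macrophage markers *Lyz2* is listed at 0 in 3 groups and at 10105 TPM in LDAH-Tg PM, and no ratio is given for it. A macrophage marker at 0 in 3 groups of macrophages shows that the deposited level of a single gene can be unreliable. The reason was not tested. The other 7 summed to 3970 and 3594 TPM in WT and LDAH-KO PM and to 5374 and 5255 TPM in control and LDAH-Tg PM, most of it *Cd68*. Of these 7, 0 passed the factor, beside at most 1.83% of all genes in 1 direction.

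The start regions of the members had little in common. RefSeq windows of 300 bases, 250 before and 50 after the start, were at hand for 3 of the 4 genes, the other being *Mdk*. On both strands, *Serpinf1* held 2 AGGTCA copies, and of 32851 windows 16.3% held at least 1 and 1.81% at least 2. It also held 3 CCAAT boxes, of which 37.4% of windows held at least 1 and 3.37% at least 3. *Fscn1* held TATAAA, as did 13.6% of windows, and *Dnm1* held GGGCGG, as did 35.7%, just after its start. The pair of AGGTCA copies with 4 bases between them, the DR4 element of LXR, was in 0.0152% of windows and in none of the 3. CANNTG was found 4 times in *Serpinf1*, and 72.3% of windows held at least 1 and 6.49% at least 4, while its special case CACGTG was in 7.15% and in none of the 3. Nor did the 3 windows hold the AP-1 motif TGACTCA (5.20% of windows), the TEAD motif GGAATG (14.7%), the GATA factor motif GATAAG (7.44%) or the PU.1 motif GAGGAAGT (3.20%). GC content was 50.7% for *Serpinf1*, 61.7% for *Fscn1* and 59.0% for *Dnm1*, beside a median of 52.7%. A match describes letters in the window and not a bound site.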

How the data were processed

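RNA of oxLDL-loaded PM was sequenced by the authors from poly(A)-enriched libraries. The builds and tools in the submitters' processing notes are GRCm38, or mm10, with Cuffdiff 2.2.1, STAR 2.4.2a, bcl2fastq 2.17.1.14, HTSeq, Trimmomatic and DESeq2; the tool behind the TPM and the annotation release are not given in the sources used here. The deposited signal is the authors' mean TPM of each group, which sums to 1000000 over 48432 genes; a closing line holding that total was dropped. As no column holds a single sample, no test or error bar was possible and ratios of means are given. Log2 ratios used a pseudocount of 0.5, a minimum mean of 1 TPM and a factor of 1.5; genes with a group at 0 were left out. A repeated symbol stands for its entry of highest mean. Gene positions and types come from GENCODE M21 and start regions from RefSeq, both on GRCm38. The planned comparison of protein sequences was not run.

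The members and lists were chosen with earlier results of these data known. Named genes are the members, *Ldah*, the 5 genes nearest in pattern to each member, protein-coding genes past the factor in both lines, the extremes of each list and direct relatives. Neighbours within 25 kb, genes ranked beside the members, abundant list genes and non-coding genes were named after their values were seen. Alternatives were other pseudocounts, minimum levels, factors and scalings, protein-coding genes alone, and keeping genes at 0. Python 3.11.15, numpy 2.4.6, pandas 2.3.3 and matplotlib 3.10.9 were used. Only the ratio and threshold steps were checked, on changes put into the group means without noise, which checks the code and not the data.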

Additional observations from a re-analysis of the deposited data

How the results depend on the processing

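No paired analysis was possible because the columns are group means and carry no replicate numbers, and for the same reason no replicate could be left out. The direction of all 4 members, by which they were chosen, held in both lines under every alternative that gave a value. Most alternatives could not have changed it. Other minimum levels, factors and gene selections leave a member's ratio as it was, and a pseudocount cannot reverse a sign. Only the scalings could have done so. In LDAH-KO PM *Mdk* and *Dnm1* fell short of the factor of 1.5 with a pseudocount of 1 (-0.54 and -0.51), with median-ratio scaling (-0.53 and -0.52) and with quantile normalization (-0.46 and -0.44), and at a minimum mean of 5 TPM neither they nor, in LDAH-KO PM, *Serpinf1* had a value. The log2 ratios of *Serpinf1* ranged from 0.60 to 0.72 and from -1.59 to -1.25, and those of *Fscn1* from 0.37 to 0.44 and from -1.07 to -0.82.

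Counts over all genes depended on the settings. Genes higher in LDAH-Tg PM numbered 144, and 234 with no pseudocount, 255 with no minimum, 57 at 5 TPM, 29 at a factor of 2, 860 at a smaller factor and 71 among protein-coding genes. Genes lower in LDAH-KO PM numbered 207, and 362 with no minimum, 64 at 5 TPM, 129 after quantile normalization, 46 at a factor of 2 and 1112 at a smaller factor. Genes past the factor in both numbered 11, and 17 with a pseudocount of 0.1, 18 with none, 17 with no minimum, 3 at 5 TPM, 7 after quantile normalization, 0 at a factor of 2, 111 at a smaller factor, 5 among protein-coding genes and 18 with genes at 0 kept. Of the genes past the factor in LDAH-KO PM 82.5% were lower, against 65.2% after quantile normalization and 94.2% among protein-coding genes. The depth of the means is unknown, which limits the weight of members under 5 TPM.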

Other observations

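The other 6 genes past a factor of 1.5 in both lines in the direction of LDAH are not protein-coding, and some are nuclear RNAs. *Malat1*, an abundant RNA held in nuclear speckles, was at 172 TPM in control PM against 288 TPM in LDAH-Tg PM (0.74 as a log2 ratio), and at 70.0 TPM in WT PM against 38.9 TPM in LDAH-KO PM (-0.84 as a log2 ratio). Its order over the 4 groups was that of *Mdk* and *Dnm1*. *Neat1*, the scaffold of paraspeckles, was at 611 and 1024 TPM in the transgenic line and at 169 and 139.7 TPM in the knockout line (log2 ratios 0.75 and -0.27). It is not among the 6, as it fell short of the factor in LDAH-KO PM. *Rian*, an imprinted non-coding RNA, had log2 ratios of 0.67 and -0.74 at 0.852 to 2.05 TPM. The antisense gene *2900089D17Rik* had log2 ratios of 0.92 and -0.80, and the long non-coding *AI480526* of 0.83 and -0.70. In LDAH-KO PM *Rian* (0.852 TPM) and *2900089D17Rik* (0.870 TPM) were under 1 TPM, and reached that minimum only through the WT group. The last 2 of the 6 are *Mir703* (0.85 and -0.88) and the T cell receptor segment *Trav14n-3* (1.32 and -0.86). These genes were named after their values were seen. Whether the share of nuclear RNA in the libraries bears on the values of *Mdk* and *Dnm1* was not tested.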
